A study of Sus scrofa with 96 samples.

Results

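The transcripts described here were those far higher in articular cartilage than in synovium in the intact knees of Yucatan minipigs. They numbered 162 of the 46295 pig transcripts in the deposited tables, and their levels were followed in both tissues of intact and operated knees, 52 weeks after surgery. They were chosen by their length and their CPM in the 12 intact contralateral knees, named CON, and by no operated library. CPM, the counts of a transcript scaled to the total of its library (per 1000000 counts), was averaged over the 12 CON cartilage libraries and over the 12 CON synovium libraries. A transcript was a member if it was longer than 300 bases and if the log2 of (cartilage mean + 1) over (synovium mean + 1) was 4 or more. At most 200 members were to be kept by cartilage level, and since only 162 transcripts met the rule, all were kept. The rule set a ratio and not absence from synovium. In CON synovium 75 members averaged at least 1 CPM, and 4 averaged at least 100 CPM.

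The study followed the transection of the anterior cruciate ligament (ACL), a common route to posttraumatic osteoarthritis. ACLT knees had the ligament cut and received no further treatment. RECON knees were reconstructed with a bone-patellar tendon-bone allograft, and REPAIR knees were treated with sutures and an extracellular matrix scaffold loaded with the animal's own blood. CON knees were the uncut knees of operated animals, 4 from each surgical group, so every animal had been operated on and 12 of the operated knees shared their animal with a CON knee. Cartilage came from the medial femoral condyle, and synovium was cut from a piece that had been excised together with the medial meniscus and capsule. Both tissues of each knee were sequenced as separate libraries, and those of 12 CON, 11 ACLT, 12 RECON and 12 REPAIR knees were used. Knee ACLT 12 was sequenced too, and it was left out of every value except where it is named.

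Articular cartilage is a tissue without vessels, in which chondrocytes hold a matrix of fibrillar and network collagens, proteoglycans and small glycoproteins. Synovium is the lining of the joint, made of fibroblast-like cells and macrophages over a vascular layer, and it borders the meniscus, which is itself a fibrocartilage. Genes of the cartilage matrix are textbook markers that part these tissues, and loss of that matrix defines osteoarthritis. No table at hand paired the deposited Ensembl transcript identifiers with gene names, so the members are called by identifier, the label cartilage-restricted could not be checked against named markers, and no gene or protein sequence is printed. A transcript is 1 of several possible products of a gene, and the members need not be 162 different genes. In whole tissue, fewer cells of a type and less RNA in each cell cannot be told apart.

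Total counts ran from 7483049 to 21937198 over the 94 libraries used. Libraries of a group never shared the same values throughout, and the least different pair of a group had a chi-square of 20.7 per degree of freedom, far over sampling noise. In synovium, library CON 11 stood apart from the other CON libraries in many members, and library REPAIR 7 stood apart from the other operated libraries. The same 2 knees were low in the summed member level of cartilage. Their values are given with many of the results that they touch, and both were kept except where stated.

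In CON knees, ENSSSCT00000047570.3 was the most abundant member, with a mean of 121971 CPM ± 56033 (SD, n = 12) in cartilage against 1.21 CPM in synovium. The next members by CON cartilage level were ENSSSCT00000015202.5 at 56141 CPM, ENSSSCT00000042024.3 at 22788 CPM, ENSSSCT00000016639.5 at 11823 CPM and ENSSSCT00000064359.3 at 11582 CPM. The other members of the first 10 were ENSSSCT00000004631.5, ENSSSCT00000040438.3, ENSSSCT00000002052.5, ENSSSCT00000015220.4 and ENSSSCT00000005288.6, between 7191 and 4282 CPM. The lowest cartilage level inside the rule was 19 CPM, in ENSSSCT00000095749.1. Just inside the threshold of the log2 ratio lay ENSSSCT00000004631.5 at 4.02, and just outside lay ENSSSCT00000006553.5 at 3.98. These CON values chose the members and are a description.

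The members were about as long as other transcripts of more than 300 bases. Their lengths ran from 398 to 11946 bases with a median of 3357, against a median of 3138 bases over the 29227 tested transcripts longer than 300 bases. Levels of different transcripts can be compared only per length, for which the deposited TPM (transcript share scaled by effective length) served. By mean TPM in operated cartilage, ENSSSCT00000047570.3 still ranked 1 with 69829 TPM, ENSSSCT00000015202.5 ranked 2 with 31392 TPM and ENSSSCT00000042024.3 ranked 3 with 8975 TPM. Below them the order changed: ENSSSCT00000029059.4, only 398 bases long, ranked 32 by CPM and 7 by TPM, at 6639 TPM.

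Summed over all 162 members, cartilage libraries of every group gave about the same large share of their counts. The sum was 30.3% of counts in CON cartilage (range 21% to 38.9%), 30.3% in ACLT (20.5% to 37.0%), 29.9% in RECON (20.3% to 41.8%) and 32.4% in REPAIR (18.2% to 40.8%). The ranges overlapped widely. The lowest CON library was CON 11 at 21% and the lowest of all was REPAIR 7 at 18.2%. ENSSSCT00000047570.3 alone held much of the sum. Without it the means were 18.1% in CON, 16% in ACLT, 15.5% in RECON and 15.4% in REPAIR cartilage.

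In synovium the same sum was under 1% of counts in every library, and its mean was higher in each operated group than in CON. It was 0.182% in CON (0.0735% to 0.309%), 0.374% in ACLT (0.191% to 0.643%), 0.430% in RECON (0.202% to 0.727%) and 0.346% in REPAIR (0.152% to 0.574%). Operated and CON libraries overlapped, with CON 11 at 0.307% and REPAIR 7 at 0.192%. The members were picked for a low level against cartilage in CON synovium, which favours a rise. A few members held much of the sum. ENSSSCT00000004631.5 and ENSSSCT00000040438.3 averaged 444 and 355 CPM of a summed 1822 CPM in CON synovium. In RECON synovium they averaged 1016 and 1039 CPM of a summed 4300 CPM. The left-out knee ACLT 12 lay at 0.256% in synovium and 34.5% in cartilage, inside the ACLT ranges above.

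**Figure D1:**
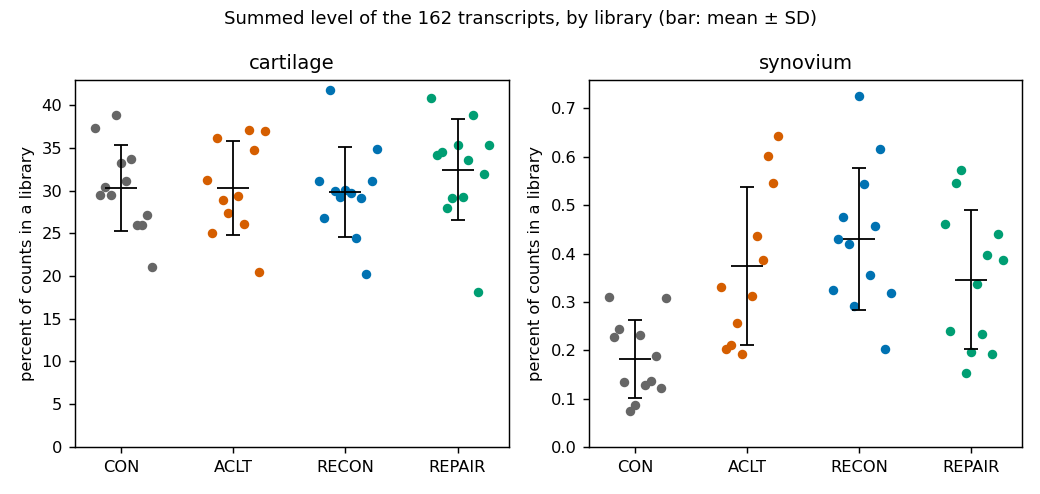
Percent of a library's counts held by the 162 transcripts (y axis), for each library of CON, ACLT, RECON and REPAIR knees (x axis), in cartilage on the left and synovium on the right, with the mean ± SD of each group. Cartilage groups had means from 29.9% to 32.4%, and in synovium CON averaged 0.182% against 0.346% to 0.430% in the operated groups.

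The first question was whether the restriction to cartilage held in operated knees, whose libraries had no part in the choice. It did for nearly every member. Counts of the 70 operated libraries were tested with edgeR's quasi-likelihood test over 29326 transcripts, with p-values adjusted by the Benjamini-Hochberg method. In ACLT knees, 162 of 162 members were higher in cartilage at an adjusted p under 0.05, where 23.9% of all tested transcripts were. In RECON knees 161 of 162 were, against 24.6% of all, and in REPAIR knees 162 of 162 were, against 23.7% of all. The median member difference was 7.23 on the log2 scale in ACLT, 7.07 in RECON and 7.19 in REPAIR, while the median over all transcripts was 0.03, 0.02 and -0.01. These medians stayed at 7.23, 7.07 and 7.19 with each member that had no synovium count in the group set to its bound at 3 counts. Such members lay above the median either way, so this replacement could not move it.

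Library by library, the tissues parted for most members. Every one of the 35 operated cartilage libraries lay above every operated synovium library in 141 members (87.0%), as against 1.8% of all transcripts tested. Within knees, 154 members (of 162) were higher in the cartilage than in the synovium of all 35, as were 3.51% of all transcripts tested. Among the other 21 members, whose tissues overlapped, ENSSSCT00000049521.3 had the fewest such knees, 23 of 35.

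ENSSSCT00000049521.3 was also the exception in RECON knees, and it is named after its values were seen. Its RECON cartilage libraries ran from 0 to 96.5 CPM with a median of 3.09, and its RECON synovium libraries reached 27.6 CPM in RECON 9. The levels overlapped, and the log2 difference was 2.11 (SE 1.10, adjusted p = 0.106, edgeR). Without knee RECON 9 the log2 difference was 3.27 and passed the threshold, and without RECON 2, the library at 96.5 CPM, it was 0.16. The transcript passed in ACLT knees with 4.28 (SE 1.24, adjusted p = 0.00304, edgeR) and in REPAIR knees with 5.90 (SE 1.30, adjusted p = 9.6e-05, edgeR). In cartilage it had the widest spread of all members, with a coefficient of variation (SD as percent of the mean) of 188% averaged over the operated groups.

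**Figure D2:**
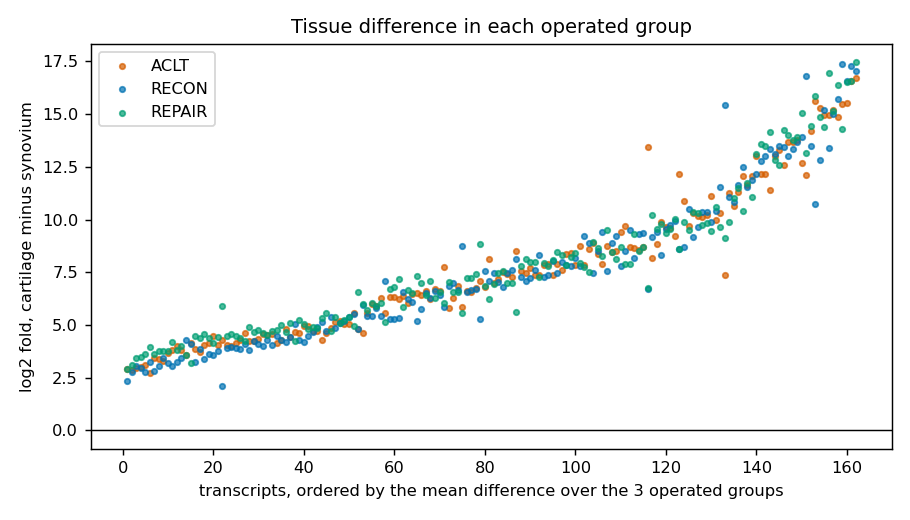
Fitted log2 difference, cartilage minus synovium (y axis), for each of the 162 transcripts ordered by the mean over the operated groups (x axis), with a point for ACLT, RECON and REPAIR knees. All points lie above 0, between 2.11 and 17.45.

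The members differed in how strict the restriction was. Averaged over the operated groups, the log2 difference was smallest in ENSSSCT00000083419.2 at 2.72 (SE 0.25), ENSSSCT00000008472.4 at 2.92 (SE 0.19), ENSSSCT00000054680.3 at 3.15 (SE 0.18), ENSSSCT00000004631.5 at 3.15 (SE 0.14) and ENSSSCT00000023428.2 at 3.17 (SE 0.26). For ENSSSCT00000083419.2, operated cartilage ran from 13.8 to 69.4 CPM with a median of 35, and operated synovium from 0 to 23.4 CPM with a median of 6.84. Its tissues therefore overlapped. For ENSSSCT00000008472.4, operated cartilage ran from 107 to 301 CPM and operated synovium from 0 to 57.2 CPM, with no overlap.

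At the other end, the differences were 17.08 (SE 0.48) in ENSSSCT00000047570.3, 16.81 (SE 0.45) in ENSSSCT00000009545.5, 16.22 (SE 0.23) in ENSSSCT00000046826.3, 15.71 (SE 0.27) in ENSSSCT00000029893.4 and 15.66 (SE 0.25) in ENSSSCT00000067613.2. ENSSSCT00000047570.3 ran from 59901 to 265919 CPM in operated cartilage and averaged 1.499 CPM in operated synovium, where 28 of 35 libraries held a count. ENSSSCT00000009545.5 averaged 1771 CPM in operated cartilage and had 5 counts in all 35 synovium libraries together. ENSSSCT00000046826.3 averaged 1232 CPM in operated cartilage and had 6 counts in operated synovium. With so few counts in the lower tissue, the fitted differences of ENSSSCT00000009545.5 and ENSSSCT00000046826.3 depend on the prior count of the fit. Their SEs are built from these differences and can be too small for the counting error. The difference of ENSSSCT00000047570.3 had 712 synovium counts behind it.

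Set as a share of the cartilage level in operated knees, the synovium level had a median of 1.06% over the members and a highest value of 20.5%. It was under 0.1% in 31 members, at least 1% in 82 and at least 10% in 15. A count was present in every operated synovium library for 53 members. At the bottom, 7 members had no count in any operated synovium library, and their cartilage levels were at least 3409-fold to 40769-fold higher, taking 3 counts over all 35 libraries as the limit. Another 5 members had 1 to 3 counts there.

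**Figure D3:**
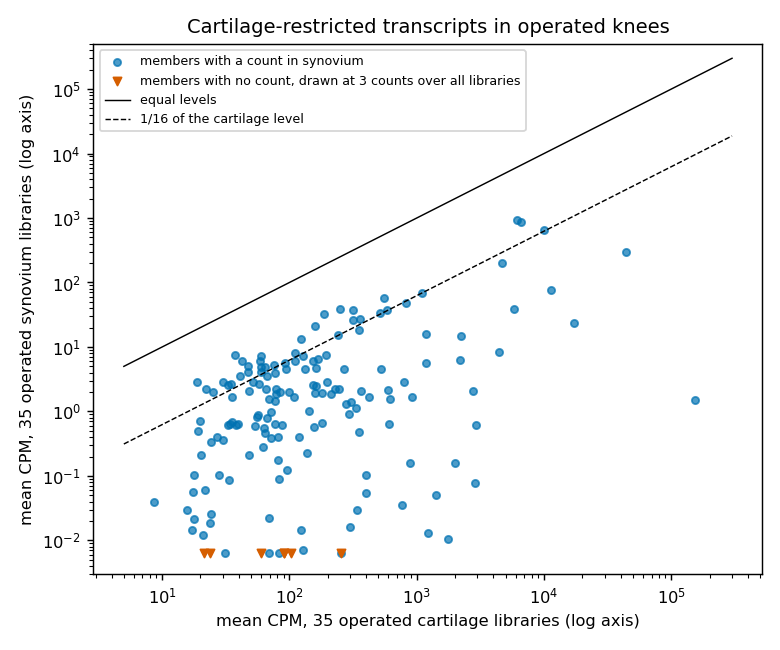
Mean CPM of each of the 162 transcripts in the 35 operated cartilage libraries (x axis) and the 35 operated synovium libraries (y axis), both on log axes, with lines for equal levels and for 1/16 of the cartilage level. Triangles are the 7 transcripts with no synovium count, drawn at 3 counts over all libraries, and all transcripts lie below the line of equal levels.

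In operated synovium, the members with the highest levels were ENSSSCT00000004631.5, ENSSSCT00000040438.3, ENSSSCT00000016639.5, ENSSSCT00000015202.5 and ENSSSCT00000005288.6. ENSSSCT00000004631.5 averaged 931 CPM there, or 15.2% of its operated cartilage level of 6112 CPM. ENSSSCT00000040438.3 averaged 861 CPM, or 13.1% of cartilage. ENSSSCT00000016639.5 averaged 651 CPM, or 6.51% of cartilage. ENSSSCT00000015202.5 averaged 293 CPM, which was only 0.667% of its 43907 CPM in cartilage. These 5 were all among the 10 most abundant members in CON cartilage.

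The second question was whether the operated groups differed from each other. In cartilage, no member passed. Of 162 members, 0 passed for RECON against ACLT, 0 for REPAIR against ACLT and 0 for REPAIR against RECON with edgeR, where 0.00682%, 0.017% and 0.0477% of all transcripts passed. DESeq2 also called 0 in each, where it called 0.436%, 0.307% and 0.566% of all transcripts. At an unadjusted p under 0.05 there were 0, 4 and 9 members, or 0%, 2.47% and 5.56% of them, against 4.09%, 5.33% and 7.18% of all transcripts.

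For ENSSSCT00000047570.3, ACLT cartilage ran from 59901 to 239559 CPM with a median of 128199, RECON from 70116 to 247154 with a median of 145304, and REPAIR from 83935 to 265919 with a median of 173490. The groups overlapped almost fully, and the log2 difference of REPAIR from ACLT was 0.36 (SE 0.45, adjusted p = 1, edgeR). For ENSSSCT00000015202.5, the medians were 46022 CPM in ACLT, 44765 CPM in RECON and 41857 CPM in REPAIR cartilage. Its REPAIR to ACLT log2 difference was -0.03 (SE 0.46, adjusted p = 1, edgeR). For ENSSSCT00000042024.3, they were 19483 CPM, 16717 CPM and 16347 CPM, with a log2 difference of -0.05 (SE 0.64, adjusted p = 1, edgeR).

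In synovium, the 3 group comparisons called 1, 0 and 1 members, and it was the same transcript both times. RECON against ACLT gave 1 of 162 members where 0.0136% of all transcripts passed, REPAIR against ACLT gave 0 where 0.0102% passed, and REPAIR against RECON gave 1 where 0.0341% passed. The filter used the counts of both tissues, so members with few synovium counts could enter these tests by their cartilage counts. Fits on synovium libraries alone tested only part of the members. DESeq2 called 4, 2 and 4 members, where it called 0.239%, 0.235% and 0.286% of all transcripts. At an unadjusted p under 0.05, there were 19, 18 and 37 members, or 11.7%, 11% and 22.8% of them, against 4.29%, 3.33% and 5.49% of all transcripts. Of these, edgeR's adjustment left only the transcript described next. The 3 comparisons share groups with each other. Each transcript had 1 spread fitted over both tissues, while the members' median coefficient of variation was wider in synovium than in cartilage. The part of this in the shares at an unadjusted p was not tested.

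That transcript was ENSSSCT00000012949.3, a member with 484 CPM ± 88.8 (SD, n = 12) in CON cartilage. Its cartilage medians were 382 CPM in ACLT, 367 CPM in RECON and 388 CPM in REPAIR, with overlapping ranges. In operated synovium it had counts only in part of the RECON knees: 16 in RECON 8, 11 in RECON 1, 7 in RECON 2, 7 in RECON 4, 6 in RECON 3, 6 in RECON 11 and 2 in RECON 10, or 55 counts in 7 of 12 libraries. The highest RECON level was 1.01 CPM. All 11 ACLT and all 12 REPAIR synovium libraries held 0 counts, and of the 12 CON libraries CON 4 held 2.

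The RECON mean of 0.300 CPM was at least 12.4-fold higher than in ACLT synovium and at least 18-fold higher than in REPAIR synovium, with 3 counts over the group as the limit. For RECON against ACLT the fitted log2 difference was 5.04 (SE 0.95, adjusted p = 0.0233, edgeR). For REPAIR against RECON it was -5.04 (SE 0.83, adjusted p = 0.00363, edgeR). With no counts in ACLT or REPAIR synovium, both differences and their SEs depend on the prior count of the fit. The call against ACLT was lost when any of 13 knees was left out, namely ACLT 1, 2, 3, 5, 6, 7, 8 or 10 or RECON 1, 3, 4, 8 or 11, with adjusted p-values up to 0.0712 and log2 differences from 4.68 to 5.17. The call against REPAIR was kept in each of these fits. Fits on synovium libraries alone did not test this transcript, whose counts were under their minimum.

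The third question was whether the difference between the tissues itself differed between operated groups, which is the interaction of tissue and treatment. It passed for 0 members of RECON against ACLT, 0 of REPAIR against ACLT and 1 of REPAIR against RECON, where 0%, 0% and 0.00341% of all transcripts passed with edgeR. DESeq2 called 4, 1 and 2 members, where it called 0.45%, 0.372% and 0.433% of all transcripts. Unadjusted p-values under 0.05 were found in 13, 10 and 22 members, or 8.02%, 6.17% and 13.6%, against 3.46%, 4.24% and 5.85% of all transcripts. The shared filter and the shared spread named for the synovium comparisons apply here too, and their part in these shares was not tested. The 1 member was again ENSSSCT00000012949.3, with a log2 difference of 5.15 (SE 0.88, adjusted p = 0.0166, edgeR) between REPAIR and RECON. With the knee as a block, to pair the cartilage and synovium of a knee, it was 4.96 with an adjusted p of 0.585 (edgeR) and no member passed. Without knee RECON 1 or without RECON 8 it did not pass either, with adjusted p-values up to 0.0594.

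Levels in operated knees were then set beside those in CON knees. The CON libraries had picked the members for a high cartilage and a low synovium level, so a fall in cartilage and a rise in synovium are favoured by the choice, and these ratios are described without a test. They are log2 ratios of mean CPM with 1 CPM added to each mean. The study reported lower mean RNA integrity and a lower share of uniquely mapped reads in operated than in CON synovium. The part of this in the ratios was not tested.

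In cartilage the members stayed near their CON levels. The median log2 ratio was -0.10 over the members and -0.00072 over all tested transcripts. Of the 162 members, 53 lay above and 109 below CON, where 49.7% of all transcripts lay above. At least 2-fold above CON was 1 member, where 0.593% of all transcripts were, and at least 2-fold below were 3, where 0.164% were. With CPM scaled by TMM, a scaling between libraries that limits the pull of abundant transcripts, 65 members lay above CON and the median was -0.06.

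Among the lower members in operated cartilage, ENSSSCT00000054680.3 ran from 255 to 821 CPM with a median of 479 in CON. Its medians were 228 CPM in ACLT, 242 CPM in RECON and 197 CPM in REPAIR, and 23 of 35 operated libraries lay below the lowest CON library. The log2 ratio was -0.97. ENSSSCT00000073328.2 had a CON median of 116 CPM and medians of 55.1 in ACLT, 59.8 in RECON and 45.9 in REPAIR, with a log2 ratio of -1.01 and 24 of 35 operated libraries below the lowest CON library. REPAIR 1 at 196 CPM was the exception above all CON libraries.

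ENSSSCT00000009414.5 had the lowest log2 ratio in cartilage, -1.65. It varied widely in CON cartilage, from 4.00 to 240 CPM with a median of 28.1, and the operated medians were 10.9 CPM in ACLT, 4.17 CPM in RECON and 19.7 CPM in REPAIR. Its CON mean of 58.1 CPM was set by CON 8 at 240 CPM and CON 6 at 181 CPM. ENSSSCT00000030042.4 was alike in this, with a log2 ratio of -1.35 and a CON range of 1.39 to 66.8 CPM. The last of the 5, ENSSSCT00000006589.6, had a log2 ratio of -0.88.

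On the higher side of cartilage, ENSSSCT00000084361.2 had a log2 ratio of 1.46. Its CON libraries ran from 3.51 to 124 CPM with a median of 20.4, and the medians were 68.1 CPM in ACLT, 35.3 CPM in RECON and 84.9 CPM in REPAIR. Of 35 operated libraries 30 lay above the CON median, but only 9 above the highest CON library. It was at 0 counts in all CON and all operated synovium libraries. ENSSSCT00000048138.3 at 0.76, ENSSSCT00000015795.5 at 0.75, ENSSSCT00000018493.5 at 0.73 and ENSSSCT00000058104.3 at 0.47 followed. For ENSSSCT00000048138.3 31 of 35 operated libraries lay above the CON median of 75.8 CPM.

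**Figure D4:**
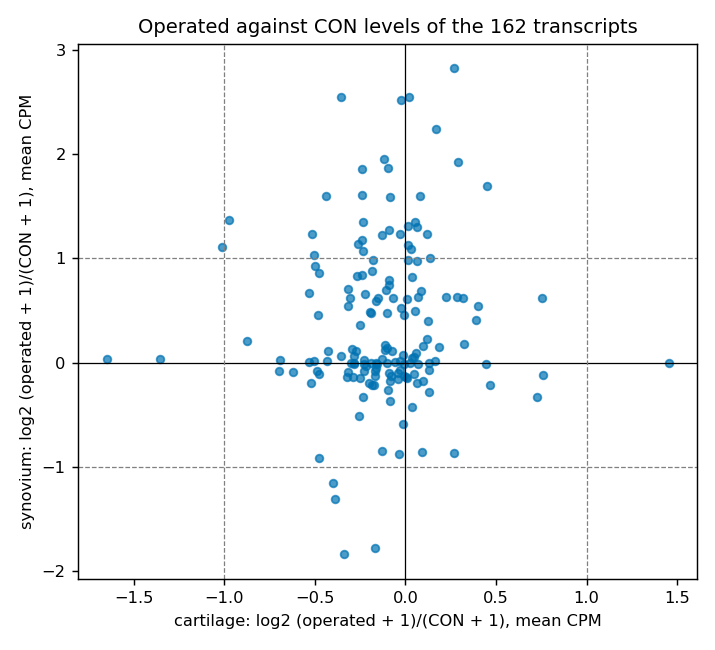
Log2 ratio of mean CPM in operated over CON knees, each with 1 CPM added, in cartilage (x axis) and synovium (y axis), with a point for each of the 162 transcripts and dashed lines at 2-fold. In synovium 31 points lie at or above the upper 2-fold line and 4 at or under the lower, against 1 and 3 in cartilage.

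In synovium more members lay far from CON, and mostly above it. Of the 162 members, 31 (19.1%) lay at least 2-fold above CON, where 1.57% of all transcripts did, and 4 lay at least 2-fold below, where 1.54% did. In all, 99 members were above and 57 below CON, where 34.6% of all transcripts lay above. The median log2 ratio was 0.11, against -0.12 over all transcripts. With CPM scaled by TMM the median over all transcripts was 0.00089, a shift of more than 0.1, and the members had a median of 0.11, 35 members 2-fold above and 4 below, with 1.81% and 0.839% of all transcripts. Without CON 11 and REPAIR 7 there were 37 members 2-fold above and 5 below, with 1.96% and 2.20% of all transcripts.

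ENSSSCT00000015202.5, the second most abundant member of cartilage, ran from 0 to 412 CPM with a median of 3.84 in CON synovium. In ACLT synovium it ran from 13.4 to 546 CPM with a median of 175, in RECON from 40.8 to 777 with a median of 304, and in REPAIR from 1.76 to 718 with a median of 255. The CON library at 412 CPM was CON 11, and the next highest was at 94 CPM. REPAIR 7 at 1.76 CPM and REPAIR 5 at 5.71 CPM were the low operated libraries. The log2 ratio of operated to CON means was 2.55, and without CON 11 it was 4.08.

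ENSSSCT00000064359.3 was at 0 in 5 CON synovium libraries and at 126 CPM in CON 11, with 9.29 CPM as the highest of the other 11. Its medians were 71.9 CPM in ACLT, 69.2 CPM in RECON and 60.6 CPM in REPAIR. Against the 11 CON libraries without CON 11, 34 of 35 operated libraries lay above the highest, and REPAIR 7 at 1.26 CPM was the exception. The log2 ratio was 2.52, or 4.60 without CON 11.

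ENSSSCT00000002052.5 was at 0 in 9 of 12 CON synovium libraries and at 63.4 CPM in CON 11. Its medians were 36 CPM in ACLT, 36.7 CPM in RECON and 24.9 CPM in REPAIR. Again 34 of 35 operated libraries exceeded the other 11 CON libraries, whose highest was 4.17 CPM, and REPAIR 7 at 0.89 CPM did not. The log2 ratio was 2.55, or 4.74 without CON 11.

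ENSSSCT00000032511.4 had a CON median of 5.40 CPM in synovium and medians of 45.2 CPM in ACLT, 51.5 CPM in RECON and 38.5 CPM in REPAIR. CON 11 lay at 50.5 CPM, within the operated range, and REPAIR 7 at 7.04 CPM, within the range of the other CON libraries, which reached 11.5 CPM. The log2 ratio was 2.24, or 2.88 without CON 11.

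ENSSSCT00000028340.4 had the largest ratio, 2.82, and a different pattern. It was at 0 counts in all 12 CON synovium libraries, CON 11 included. In operated synovium 22 of 35 libraries held counts, 2934 in all, and the other 13 held none. Medians were 11.7 CPM in ACLT, 4.53 CPM in RECON and 0 CPM in REPAIR. The operated mean of 6.07 CPM was at least 302-fold higher than the CON limit of 3 counts over the group. In REPAIR against ACLT synovium its log2 difference was -1.38 (SE 0.67, adjusted p = 1, edgeR). Counts of similar transcripts are shared out by Salmon's estimate, and a value of 0 in some libraries beside several CPM in others is one such estimate, and the part of that step in this pattern was not tested.

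The libraries CON 11 and REPAIR 7 went against their groups beyond these examples. Among the 31 members at least 2-fold above CON in synovium, CON 11 was the highest CON library in 18 and lay above the operated median in 14, while no other CON library lay above it in more than 3. REPAIR 7 lay at or under the CON median in 16 of the 31, the next being REPAIR 10 with 10. REPAIR 7 and REPAIR 10 were each the single lowest operated library in 6 of the 31. Of the 4 members at least 2-fold below CON, 3 had a CON median over 0, and REPAIR 7 was at or above it in all 3, as ACLT 7 and REPAIR 5 were in 2. What set these libraries apart was not tested. With the rule applied without CON 11, 162 transcripts would have been members, and 157 of them are the same.

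**Figure D5:**
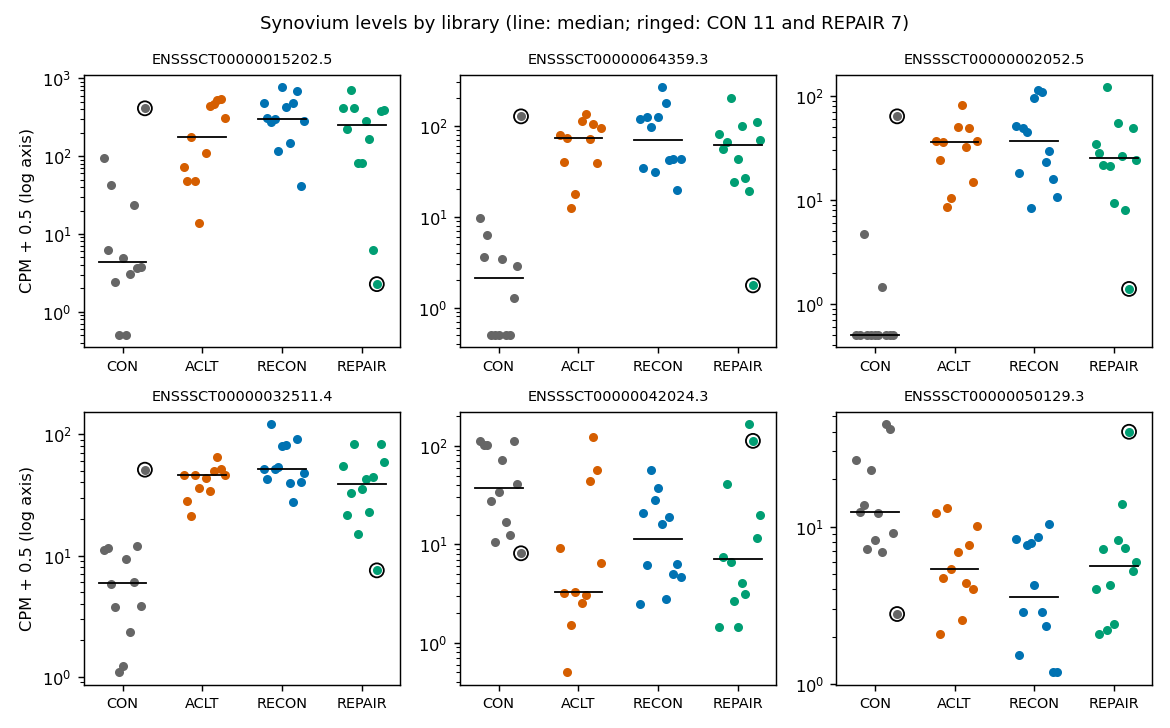
Synovium level of 6 of the 162 transcripts as CPM + 0.5 on log axes (y), for each CON, ACLT, RECON and REPAIR library (x), with the median of each group as a line and CON 11 and REPAIR 7 ringed. In the first 4 panels CON 11 lies among the operated libraries and REPAIR 7 among the CON libraries, and in the last 2 panels, which show transcripts that were lower in operated knees, both are again on the other side.

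The members that were lower in operated synovium included the third most abundant member of cartilage. ENSSSCT00000042024.3 ran from 7.61 to 111 CPM with a median of 37.0 in CON synovium, where CON 11 was the lowest. Medians were 2.76 CPM in ACLT, 10.7 CPM in RECON and 6.55 CPM in REPAIR, and 20 of 35 operated libraries lay below the lowest CON library. REPAIR 5 at 165 CPM, ACLT 7 at 122 CPM and REPAIR 7 at 112 CPM lay above the highest. The log2 ratio was -1.16. ENSSSCT00000050129.3 had a CON median of 11.8 CPM and medians of 4.91 CPM in ACLT, 3.06 CPM in RECON and 5.12 CPM in REPAIR, with a log2 ratio of -1.31.

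ENSSSCT00000035788.4 had a CON median of 4.80 CPM in synovium and medians of 0.61 CPM in ACLT, 0.57 CPM in RECON and 0.89 CPM in REPAIR, with a log2 ratio of -1.78. Its exceptions were REPAIR 5 at 19.6 CPM, REPAIR 7 at 8.13 CPM and ACLT 7 at 6.92 CPM. ENSSSCT00000014313.5 had a CON median of 5.57 CPM and medians of 1.86 CPM in ACLT, 1.96 CPM in RECON and 1.23 CPM in REPAIR, with a log2 ratio of -0.92. The ratio of ENSSSCT00000083646.2, -1.84, rested on 2 CON libraries, CON 6 at 64.5 CPM and CON 11 at 34.4 CPM, since the other 10 were at 0.

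Across the operated knees, with REPAIR 7 included, the members with the highest ratios to CON in synovium varied together. Correlations were computed on log2(CPM + 0.5) over the 35 operated synovium libraries with the group means removed, for the 90 members at 1 CPM or more, and points share library depth and composition. Among the 5 members with the highest ratios to CON of these, all 10 pairs were positively correlated, from 0.24 to 0.93, and the highest pair of all members was ENSSSCT00000064359.3 with ENSSSCT00000002052.5. Among the 5 with the lowest ratios, pairs ran from -0.20 to 0.61, and between the sets from -0.75 to 0.19, with 6 of 25 pairs positive. One of those 5, ENSSSCT00000083646.2, was at 0 in 30 of the 35 libraries, and the difference between the sets was not tested. Library REPAIR 7, which went against its group in many of these members, was among the 35. No correlation is given without it, and its part in these values was not tested. Over all pairs of these 90 members the median correlation in synovium was 0.11, above the median of 0.043 over all transcripts. Over all pairs of the 162 members in cartilage it was 0.12, close to the 0.098 over all transcripts.

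The spread of the members between knees was wider in synovium, where their levels were also far lower. Their median level in operated knees was 1.66 CPM in synovium and 106 CPM in cartilage. The spreads below were not matched for level. In cartilage the median coefficient of variation of the members was between 32.6% and 33.8% in the 4 groups, near the 27.6% to 29.9% of all transcripts at 1 CPM or more. In synovium it was 77.0% in CON, 64.1% in ACLT, 59.4% in RECON and 70.3% in REPAIR, over the 75 to 90 members at 1 CPM or more, against 30.4% to 34.3% for all transcripts. The steadiest member in operated cartilage was ENSSSCT00000060742.2, named after its values were seen, with a mean coefficient of variation of 16.6% and medians of 162 CPM in ACLT, 175 CPM in RECON and 161 CPM in REPAIR.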

How the data were processed

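Total RNA of cartilage and synovium was depleted of ribosomal RNA and sequenced in pairs. The authors quantified the reads with Salmon 1.8.0 against pig transcripts of Sscrofa11.1, per the submitters' notes, and deposited an expected count (estimated reads) and TPM per transcript for each library, without scaling between libraries. Groups came from the sample labels. Here the expected counts gave CPM per library and were rounded for the tests. Members and lists were chosen with earlier results of these data known.

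Tests used edgeR 4.0.16 in R 4.3.3 (TMM scaling, filterByExpr with a minimum count of 10, glmQLFit, glmQLFTest) on 6 groups of 70 operated libraries, without CON, since CON libraries picked the members. The SE printed beside a log2 difference is its absolute value divided by the square root of the test's F statistic. It is not a standard error from the fit, and with few or no counts in a group it can be too small. The study's filter, a non-zero value in 2 libraries, was an alternative. On simulated counts for RECON against ACLT synovium, 14 of 67 transcripts changed by a log2 of 0.5, 34 of 67 changed by 1 and 38 of 66 changed by 2 were recovered among 27729 tested, with 14 unchanged transcripts called. For the interaction of RECON against ACLT, 3, 29 and 31 were recovered with 15 unchanged transcripts called, so calls are too many in both. The counts were drawn once, with 1 spread per transcript for both tissues, as the fit also assumed. The members varied more in synovium than in cartilage, so the simulation cannot give their rate of false calls. Knee ACLT 12 is absent from the study's sample list and was left out. Same-numbered cartilage and synovium libraries come from 1 knee by that list, and the mean correlation of their distances from the group mean was 0.0526 (0.00188 to 0.134 over 35 knees), against -0.00154 between knees.

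The text names the 10 members highest in CON cartilage, those of smallest adjusted p-value in each group test and interaction, the 5 largest and 5 smallest tissue differences, the 5 highest in operated synovium and the 5 largest rises and falls from CON in each tissue. Alternatives were DESeq2 1.42.0, other scalings and filters, RNA integrity as a covariate, other library sets, blocks and single knees left out. Bounds from 3 counts cover counting error only.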

Additional observations from a re-analysis of the deposited data

Results flagged for a closer look

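The tissue difference of ENSSSCT00000012949.3 differed between REPAIR and RECON knees by 5.15 on the log2 scale in a test of the interaction. It rested on 55 synovium counts in 7 of 12 RECON libraries, and it was lost with the knee as a block.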

How the results depend on the processing

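Library totals and the number of knees limit these results: members at a few counts in synovium carry wide errors, and no p-value tests operated against CON knees. The members higher in cartilage numbered 162 in ACLT, 161 to 162 in RECON and 162 in REPAIR knees under all alternatives, the knee block included, and their median log2 difference in ACLT was 6.84 with scaling to total counts alone, when the median of all transcripts was -0.36 and 3321 rather than 7018 transcripts were higher in cartilage and 10702 rather than 6924 lower. Counts of members passing between operated groups changed most with DESeq2, which gave 4 for RECON against ACLT, 2 for REPAIR against ACLT and 4 for REPAIR against RECON in synovium and 4, 1 and 2 for the interactions in the same order. For RECON against ACLT in synovium there were 2 with the CON libraries added and 0 on synovium libraries alone. For REPAIR against RECON in synovium there were 2 with total counts, 3 with RNA integrity as a covariate and 0 on synovium libraries alone, which tested 95 members. The interaction of RECON against ACLT gave 2 with the non-zero filter and 1 with CON libraries added, and that of REPAIR against RECON gave 2 with the non-zero filter, 2 with RNA integrity as a covariate and 0 with the knee as replicate block, and the cause was not tested. The block on number within tissue, whose numbers pair no animals, changed no call of a group comparison. With single knees left out, the range was 0 to 2 for RECON against ACLT, 0 to 1 for REPAIR against ACLT and 1 to 2 for REPAIR against RECON in synovium, 0 in cartilage, and 0 to 1 for the interaction of REPAIR against RECON. Without REPAIR 1 the counts of the first pair of comparisons became 2 and 1, and without REPAIR 7 that of the last became 2.

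Scaled by TMM, the summed CPM was 355380 in CON, 351435 in RECON and 410405 in REPAIR cartilage, rather than 303004, 298598 and 324164, and the other sums moved by less than their SD. The median synovium ratio of members to CON was 0.15 with a pseudocount of 0.5 CPM. The median ratio of all transcripts in cartilage turned to 0.017 with TMM, 0.0127 without CON 11 and 0.0088 without CON 11 and REPAIR 7, and in synovium to 0.00089 with TMM. The scaling by TMM and the fits without CON 11 or REPAIR 7 were chosen after seeing the data. The number of members without overlap of the tissues was 141 with ACLT 12 included and 146 with TMM.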
